A study of Mus musculus with 13 samples.

Results

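Cell-cycle and mitosis genes were chosen by name: 40 listed genes of the 25655 in the tables, of which 15 serve DNA replication and 25 serve mitosis. Their expression was measured by strand-specific RNA-seq of total RNA from untreated primary cultures of dermal fibroblasts, the collagen-producing cells of the skin, taken from neonatal mice. The cultures came from wild-type mice (WT) or from mice with the G234D mutation on both copies of Fbn1, the gene of the matrix protein fibrillin-1 (G234D below), and no culture received an agent. Set 1 held 4 WT cultures (W1 to W4) and 4 G234D cultures (M1 to M4), and set 2 had 3 G234D cultures (M5 to M7) beside 2 of WT (W5 and W6), 13 libraries in all. The animal numbers in the titles divide set 1 into an earlier group, W1, W2, M1 and M2, and a later group, W3, W4, M3 and M4. The labels do not call these groups a batch, and the number of W1 lies far below the other 3 of its group. Each culture carries its own animal number, so the p-values below measure the spread between cultures of different mice. The sources used here do not name passage number, plating density, strain or sex. In bulk RNA a smaller share of cells in a phase and less RNA per cell in that phase cannot be told apart.

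A dividing cell licenses its replication origins in G1, copies its DNA in S phase, and separates the copies in mitosis. The MCM helicase, its loaders and the enzymes of nucleotide supply are made under E2F transcription factors at the entry to S phase. Cyclin B, the mitotic kinases, the kinesins and the activators of the anaphase-promoting complex (APC/C) are made later under the MuvB complex with B-MYB (Mybl2) and FOXM1, largely through a promoter element called the cell cycle genes homology region (CHR) and nearby CCAAT boxes. The CDK inhibitor p21, encoded by Cdkn1a, lowers transcription of both classes. Fibroblasts grown on plastic usually cycle, so both classes are normally read in such cultures.

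The promoter sequences of members from both classes show these elements directly. RefSeq promoter windows (GRCm38.p6, the assembly that mm10 also names) run from 250 bases before to 50 bases after a transcript start and matched 33 of the 40 members, 12 replication and 21 mitotic. Mcm4, Gins2, Ccne2, Ccna2, Aurkb, Kif20a and Tpx2 had no window. The words searched on both strands were TTTGAA and TTTAAA for the CHR, TTTCCCGC, TTTCGCGC, TTTGCCGC and TTTGGCGC for E2F, and CCAAT. Overlapping words were each counted. Where a gene had more than 1 window, the first listed was used. Mcm7 and Prc1 had 2 each, and the second Mcm7 window held no E2F word. The 160 bases before the start are printed 5′ to 3′ on the gene's strand for 6 members. The words, or their reverse complements, are in capitals. The first pair encode MCM subunits, and the other 4 are mitotic genes or standard proliferation markers.
Mcm5, chr8:75109349-75109508, plus strand: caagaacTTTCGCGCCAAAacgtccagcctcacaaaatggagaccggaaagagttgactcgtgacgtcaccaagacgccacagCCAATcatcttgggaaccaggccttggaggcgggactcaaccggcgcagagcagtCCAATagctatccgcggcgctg
Mcm6, chr1:128359706-128359865, minus strand: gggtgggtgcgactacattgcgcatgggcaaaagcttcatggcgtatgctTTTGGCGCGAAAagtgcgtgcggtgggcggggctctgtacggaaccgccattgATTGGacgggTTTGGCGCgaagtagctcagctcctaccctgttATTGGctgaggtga
Cdc20, chr4:118437344-118437503, minus strand: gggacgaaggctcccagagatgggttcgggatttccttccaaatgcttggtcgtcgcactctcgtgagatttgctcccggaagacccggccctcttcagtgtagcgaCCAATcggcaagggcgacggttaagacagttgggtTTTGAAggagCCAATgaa
Plk1, chr7:122159275-122159434, plus strand: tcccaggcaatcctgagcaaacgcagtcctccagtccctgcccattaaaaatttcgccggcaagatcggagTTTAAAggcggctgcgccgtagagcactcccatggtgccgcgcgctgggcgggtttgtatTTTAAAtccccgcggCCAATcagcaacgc
Mki67, chr7:135716380-135716539, minus strand: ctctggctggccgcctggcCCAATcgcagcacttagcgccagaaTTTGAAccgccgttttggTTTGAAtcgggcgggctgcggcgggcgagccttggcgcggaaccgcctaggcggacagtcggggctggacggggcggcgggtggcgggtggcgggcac
Top2a, chr11:99024190-99024349, minus strand: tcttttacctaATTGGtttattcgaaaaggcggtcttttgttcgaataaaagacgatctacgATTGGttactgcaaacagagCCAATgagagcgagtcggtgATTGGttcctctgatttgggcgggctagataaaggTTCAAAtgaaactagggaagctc

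The classes differed in these words. A CHR word lay in 19 of 21 mitotic windows (90.5%) and in 4 of 12 replication windows (33.3%), against 24.8% of the 16884 genes of the tables with a window. An E2F word lay in 6 of 12 replication windows (50%) and in 1 of 21 mitotic windows (4.76%), that of Cdk1, against 2.96% of all genes. CCAAT lay in 85.7% of the mitotic and 66.7% of the replication windows and in 38.9% of all windows. CHR and CCAAT words stood together in 81% of the mitotic, 25% of the replication and 10.1% of all windows. In Cdc20 the CHR word starts 18 bases before the transcript start, between CCAAT boxes that start 53 and 8 bases before it. Mcm5 and Mcm6 each hold a pair of overlapping E2F words, and Mcm6 holds a further E2F word 47 bases before the start. Bub1 and Nusap1 were the mitotic windows without a CHR word. The 4 replication windows with a CHR word were those of Mcm2, Mcm5, Rrm2 and Ccne1. That of Mcm5 starts 221 bases before the start, outside the printed stretch. Ccne1 held its CHR word 15 bases before the start and no E2F or CCAAT word. A match is a run of letters in the window and does not show that a factor binds there.

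**Figure D1:**
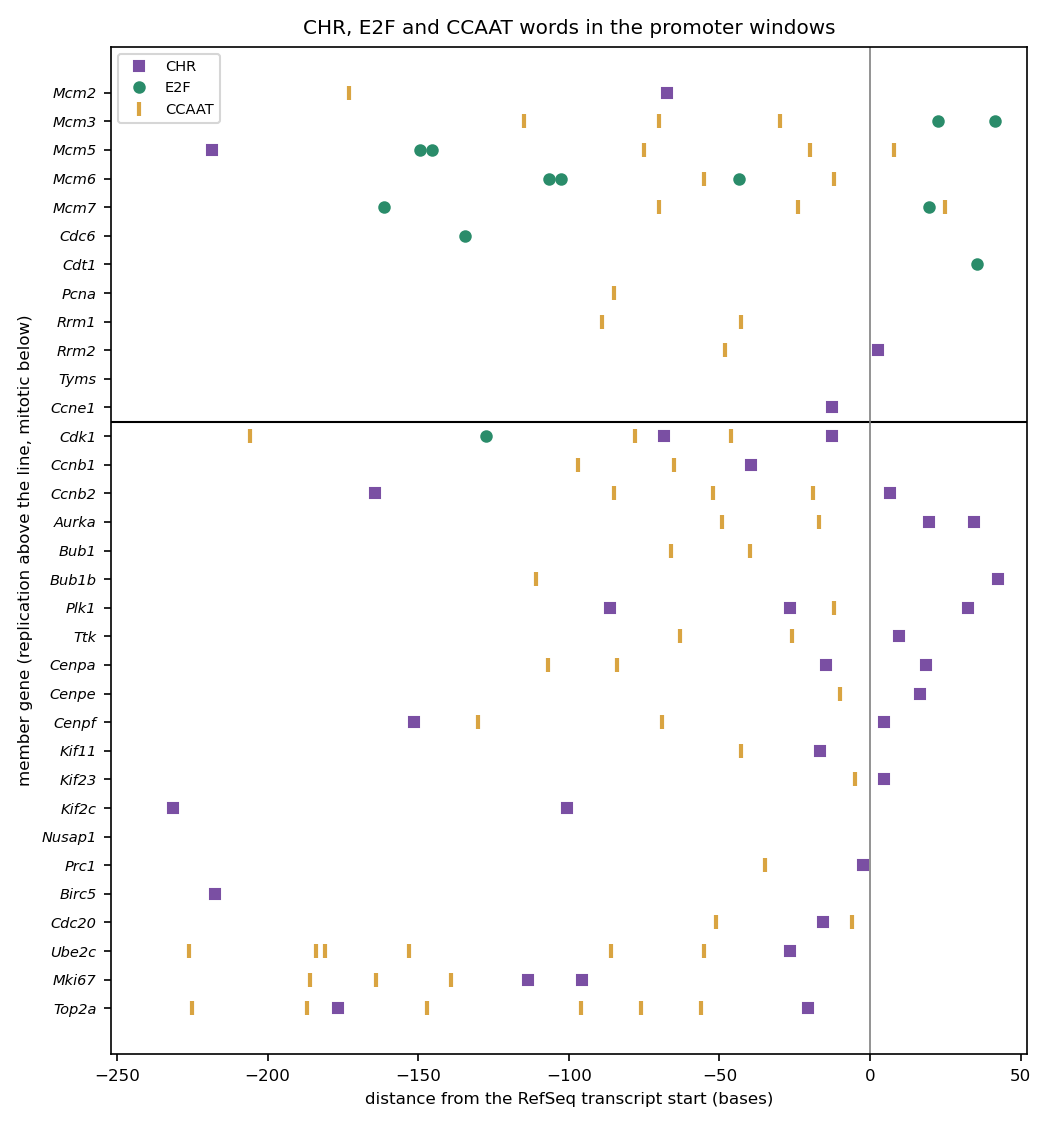
Positions of CHR, E2F and CCAAT words in the promoter windows of the 33 members with one, by distance in bases from the RefSeq transcript start (0). CHR words fill the mitotic rows (19 of 21) and E2F words sit mainly in the replication rows (6 of 12).

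All 40 members were read in every library. Levels are TPM, a share of all transcripts, which is scaled for gene length, so levels can be compared between genes. Together the members made up 0.189% to 0.229% of each library, or 1893 to 2287 TPM. Pcna, the sliding clamp that holds DNA polymerase on its template, had the highest mean over the 13 libraries at 180 TPM, followed by Rrm1 at 112 TPM, the large subunit of ribonucleotide reductase, which makes deoxynucleotides. Top2a, the topoisomerase that untangles sister chromatids, read 104 TPM and Rrm2, the small subunit of ribonucleotide reductase, 102 TPM. Cdc6, which loads the MCM helicase on origins, was lowest at 6.83 TPM. The 6 MCM genes lay close together, from 42.3 TPM for Mcm5 to 59.6 TPM for Mcm2, and their products form the ring of the helicase. The coefficient of variation over the 13 libraries ran from 5.01% for Cenpa, the centromeric histone, to 16.2% for Mki67, the gene of the proliferation antigen Ki-67. The members passed the expression filter of every comparison below.

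The labelled cell type was checked against marker lists. All 10 fibroblast markers were above 1 TPM, with a summed level of 27715 to 37859 TPM per library and Col1a1 highest at a mean of 12149 TPM. Keratinocyte and endothelial markers were near 0, with Krt10 highest at a mean of 1.90 TPM and Tek at 1.24 TPM. M1 and M2 stood apart from the other 11 libraries in Schwann cell, melanocyte and muscle markers. Their 12 Schwann cell and melanocyte markers summed to 142 and 143 TPM, against 26.0 to 51.5 TPM elsewhere, with Ngfr highest. Their 14 skeletal muscle markers summed to 429 and 341 TPM, against 73.5 to 178 TPM elsewhere, with Acta1 highest. The 13 macrophage markers, with Lyz2 highest, summed to 169 and 226 TPM in M1 and M2, 37.1 to 101 TPM in the rest of set 1 and 110 to 173 TPM in set 2, so M1 lay within the range of set 2. No marker was at 0 in all libraries. M1 also had the highest share of mitochondrial transcripts, 5.67% against 3.89% to 5.35% elsewhere. The part of these cells in the results was not tested. In set 1, counts and medians of the classes and medians of several roles are given with and without M1 and M2, except for the interaction. Without M1 and M2 the earlier group holds WT cultures only. The set 1 genotype difference then rests on M3 and M4 against W3 and W4. Later minus earlier then rests on W3 and W4 against W1 and W2.

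Fbn1 itself, the mutated gene, was read in all cultures, at 491 ± 42.8 TPM (SD, n = 4) in WT and 542 ± 50.2 TPM (SD, n = 4) in G234D cultures of set 1. In set 2 it read 405 ± 8.03 TPM (SD, n = 2) and 452 ± 32.2 TPM (SD, n = 3). A missense allele leaves the transcript in place, so these levels do not check the labels.

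**Figure D2:**
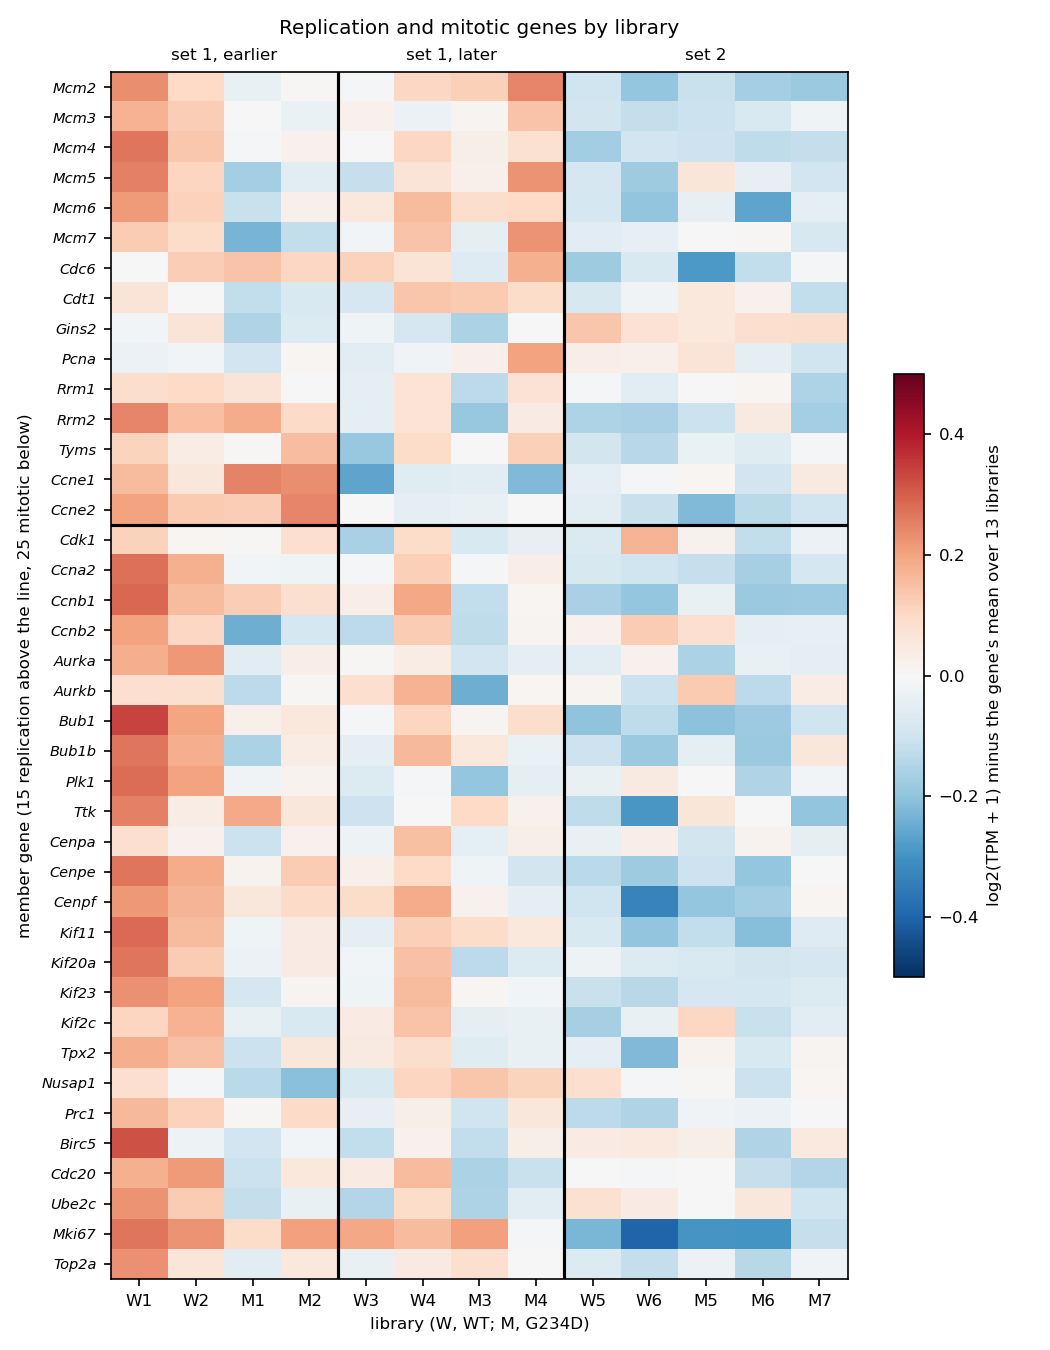
Level of each of the 40 members in each library as log2(TPM + 1) minus that gene's mean over the 13 libraries (colour), with replication genes above and mitotic genes below the horizontal line. W1 is high in most rows, the mitotic rows of M1 to M4 are mostly paler than those of W1, W2 and W4, and the set 2 columns are low for Mki67.

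The first comparison asked whether the G234D mutation changed the members over all cultures, with set as a term. No member of either class was called at an adjusted p under 0.05 (limma on log2(TPM + 1), Benjamini-Hochberg over 11942 genes), where 0% of all genes were called. The log2 difference, G234D minus WT, was negative for 34 and positive for 6 of the 40 members. Its median was -0.070 for the 25 mitotic members and -0.014 for the 15 replication members, against 0.011 for all genes tested. At an unadjusted p under 0.05, 6 of 25 mitotic and 0 of 15 replication members were lower, against 2.22% of all genes, and 0 of the 40 were higher, against 4.22%. These 6 were Cdc20, which activates the APC/C, Aurka, a spindle pole kinase, the kinesin gene Kif20a, the B cyclin gene Ccnb2, the APC/C ubiquitin-conjugating enzyme gene Ube2c, and the A cyclin gene Ccna2. Of the 4 with a promoter window, Cdc20, Aurka, Ccnb2 and Ube2c, all had CHR and CCAAT words, as did 81% of all mitotic windows. The count was 3 of 25 without M1 and M2, Cdc20, Aurka and Kif20a, against 3.03% of all genes.

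Cdc20 (ENSMUSG00000006398, mm10 chr4:118432901-118437352, minus strand) had the smallest p of the members. It read 102, 105, 93.0 and 101 TPM in W1 to W4 and 83.8, 93.8, 81.0 and 83.6 TPM in M1 to M4. In set 2 it read 90.6 and 89.9 TPM in W5 and W6 and 90.4, 83.4 and 81.5 TPM in M5 to M7. M2 reached above W3, so the genotypes overlapped narrowly in set 1, and M5 lay between the WT cultures of set 2. The log2 difference was -0.18 (SE 0.0459, limma adjusted p = 0.696), and it did not pass the threshold.

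Aurka (mm10 chr2:172356190-172370535, minus strand) read 62.1, 63.8, 54.8 and 56.2 TPM in W1 to W4 and 52.6, 56.0, 51.0 and 52.9 TPM in M1 to M4. Its set 2 levels were 52.7 and 55.4 TPM in W5 and W6 and 48.9, 53.2 and 52.8 TPM in M5 to M7. The genotypes overlapped in both sets, and the log2 difference of -0.12 (SE 0.0437, limma adjusted p = 0.742) was not called. Among replication members the smallest p belonged to Gins2, a subunit of the GINS complex of the replicative helicase. Gins2 read 23.6, 24.9, 23.5 and 22.4 TPM in W1 to W4, 21.4, 22.7, 21.2 and 23.8 TPM in M1 to M4, 26.3 and 25.1 TPM in W5 and W6, and 24.7, 25.3 and 25.4 TPM in M5 to M7. These ranges overlapped, with a log2 difference of -0.06 (SE 0.0394, limma adjusted p = 0.886). The 95% intervals of all 40 members lay within a 1.21-fold change in either direction.

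Within set 1, with the animal group as a term, the negative differences were larger and lay mostly in the mitotic class. No member of either class was called (limma, Benjamini-Hochberg over 11905 genes), where 0.0084% of all genes were called, 1 gene. Of the 25 mitotic members 24 were negative, with a median log2 difference of -0.14, and 14 were lower at an unadjusted p under 0.05, against 4.74% of all genes. At that level 0 of the 40 were higher, against 4.98%. Of the 15 replication members 10 were negative, with a median of -0.042, and 0 were lower at that unadjusted level. The median of all genes tested was -0.00038. Without M1 and M2 the difference rests on the later group alone. The count of mitotic members lower at the unadjusted level was then 2 of 25, Aurkb and Cdc20, against 5.27% of all genes. The medians were then -0.070 for mitotic members, 19 of them negative, and 0.025 for replication members, 5 of them negative. These libraries are also part of the fit over all cultures, so the set 1 values are not separate support for it.

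By role, the APC/C genes Cdc20 and Ube2c had the most negative median, -0.20, and both were lower at the unadjusted level. The kinesins, motors that build and slide the spindle, had a median of -0.16, with 3 of 4 lower at that level, Kif2c, Kif20a and Kif23. The 6 mitotic kinases had a median of -0.16, with Aurka, Aurkb and Plk1 lower at the unadjusted level and Ttk, a checkpoint kinase, on the positive side at 0.04. Among A and B cyclins and Cdk1, the log2 differences were -0.14 for Ccna2, -0.15 for Ccnb1 and -0.19 for Ccnb2, while Cdk1, their shared kinase partner, was at -0.02. The kinetochore genes Cenpe and Cenpf were at -0.14 and -0.13. Tpx2, which activates Aurora A on spindle microtubules, was at -0.15, and the midzone genes Nusap1 and Prc1 were both at -0.05. The MCM genes were all negative with a median of -0.084, and the E cyclins were positive with a median of 0.045. Without M1 and M2 the medians were -0.16 for the APC/C genes, -0.10 for the kinesins, -0.063 for the kinases, -0.050 for the A and B cyclins with Cdk1, -0.12 for the kinetochore genes and 0.015 for the E cyclins. The MCM median was then 0.054, with 5 of 6 positive. The spindle and midzone median went from -0.075 to -0.0047, and that of Mki67 and Top2a from -0.071 to -0.020. Without M1 and M2, 1 of 2 APC/C genes, 0 of 4 kinesins and 1 of 6 kinases were lower at the unadjusted level.

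Cdc20 again had the smallest p of the members, with means of 100 ± 5.20 TPM (SD, n = 4) in WT and 85.5 ± 5.64 TPM (SD, n = 4) in G234D cultures. Its log2 difference of -0.23 (SE 0.048, limma adjusted p = 0.198), or 0.853-fold, was not called. It was also -0.23 without M1 and M2, thus between the genotypes of the later group alone (limma adjusted p = 0.215). Kif2c, a kinesin that shortens microtubules at kinetochores, read 29.1, 30.5, 27.8 and 29.9 TPM in W1 to W4 and 26.3, 25.6, 26.1 and 26.3 TPM in M1 to M4. Its genotypes did not overlap, with a log2 difference of -0.16 (SE 0.047, limma adjusted p = 0.321). Aurkb, the kinase of the chromosomal passenger complex, was the other member whose 4 G234D cultures all lay below the 4 WT cultures. It read 37.7, 37.6, 37.6 and 40.2 TPM in W1 to W4 and 32.3, 35.6, 29.8 and 35.7 TPM in M1 to M4. Such separation downward was seen in 2 of 25 mitotic and 0 of 15 replication members and in 2.19% of all genes. Separation upward was seen in 0 of the 40 and in 1.97% of all genes.

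Ccnb1 (mm10 chr13:100778650-100786570, minus strand), the cyclin that drives entry into mitosis, read 85.2, 77.8, 71.3 and 79.8 TPM in W1 to W4 and 75.9, 73.7, 63.8 and 70.1 TPM in M1 to M4. W3 lay below M1 and M2, so the genotypes overlapped, and the log2 difference of -0.15 (SE 0.054, limma adjusted p = 0.436) was not called. The replication members with the smallest p were Mcm6 and Mcm4. Mcm6 read 67.3, 62.7, 60.1 and 64.8 TPM in W1 to W4 and 53.5, 58.9, 61.5 and 62.0 TPM in M1 to M4, a log2 difference of -0.11 (SE 0.058, limma adjusted p = 0.567). Mcm4 read 67.7, 61.7, 56.0 and 60.3 TPM in W1 to W4 and 55.8, 56.9, 57.2 and 59.1 TPM in M1 to M4, a log2 difference of -0.10 (SE 0.056, limma adjusted p = 0.609). Both overlapped between genotypes, with M1 lowest and W1 highest in each. The differences were -0.01 for Mcm6 and 0.0020 for Mcm4 without M1 and M2. The widest 95% interval of the members reached a 1.29-fold change.

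The markers most used for proliferation overlapped between genotypes in set 1. Mki67 (mm10 chr7:135689784-135716361, minus strand) read 54.3, 52.7, 51.6 and 50.2 TPM in W1 to W4 and 47.9, 51.9, 52 and 44.7 TPM in M1 to M4, a log2 difference of -0.09 (SE 0.054, limma adjusted p = 0.630). Top2a read 122, 108, 101 and 107 TPM in W1 to W4 and 100, 108, 110 and 104 TPM in M1 to M4, a log2 difference of -0.05 (SE 0.058, limma adjusted p = 0.797). Cdk1 read 40.3, 37.4, 33.1 and 39.6 TPM in W1 to W4 and 37.2, 39.4, 35.1 and 36.0 TPM in M1 to M4, a log2 difference of -0.02 (SE 0.060, limma adjusted p = 0.936). M1 was the lowest culture for Top2a, M4 for Mki67 and W3 for Cdk1. Pcna read 177, 178, 174 and 178 TPM in W1 to W4 and 168, 181, 183 and 207 TPM in M1 to M4, with M4 the highest culture of all 13. Its log2 difference was 0.06 (SE 0.054, limma adjusted p = 0.744).

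The balance of the classes was then described per library as the mean log2(TPM + 1) of the 25 mitotic members minus that of the 15 replication members. In set 1 this balance was -0.017, -0.050, -0.069 and -0.036 in W1 to W4 and -0.12, -0.099, -0.12 and -0.20 in M1 to M4. All 4 G234D cultures lay below all 4 WT cultures, M4 lowest. The same order held with Mki67, Top2a, Ccna2 and Cdk1, which are made from S phase on, left out of the mitotic class. In set 2 the balance was -0.092 and -0.10 in W5 and W6 and -0.086, -0.14 and -0.070 in M5 to M7, so the genotypes overlapped there. Genes outside the members gave no such separation. The balance of 52 other mitotic against 44 other replication genes was 0.17, 0.11, 0.076 and 0.10 in W1 to W4 and 0.093, 0.12, 0.020 and -0.028 in M1 to M4, with M2 above W2, W3 and W4. No test was made on these balances because the members were chosen with results of these data known.

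**Figure D3:**
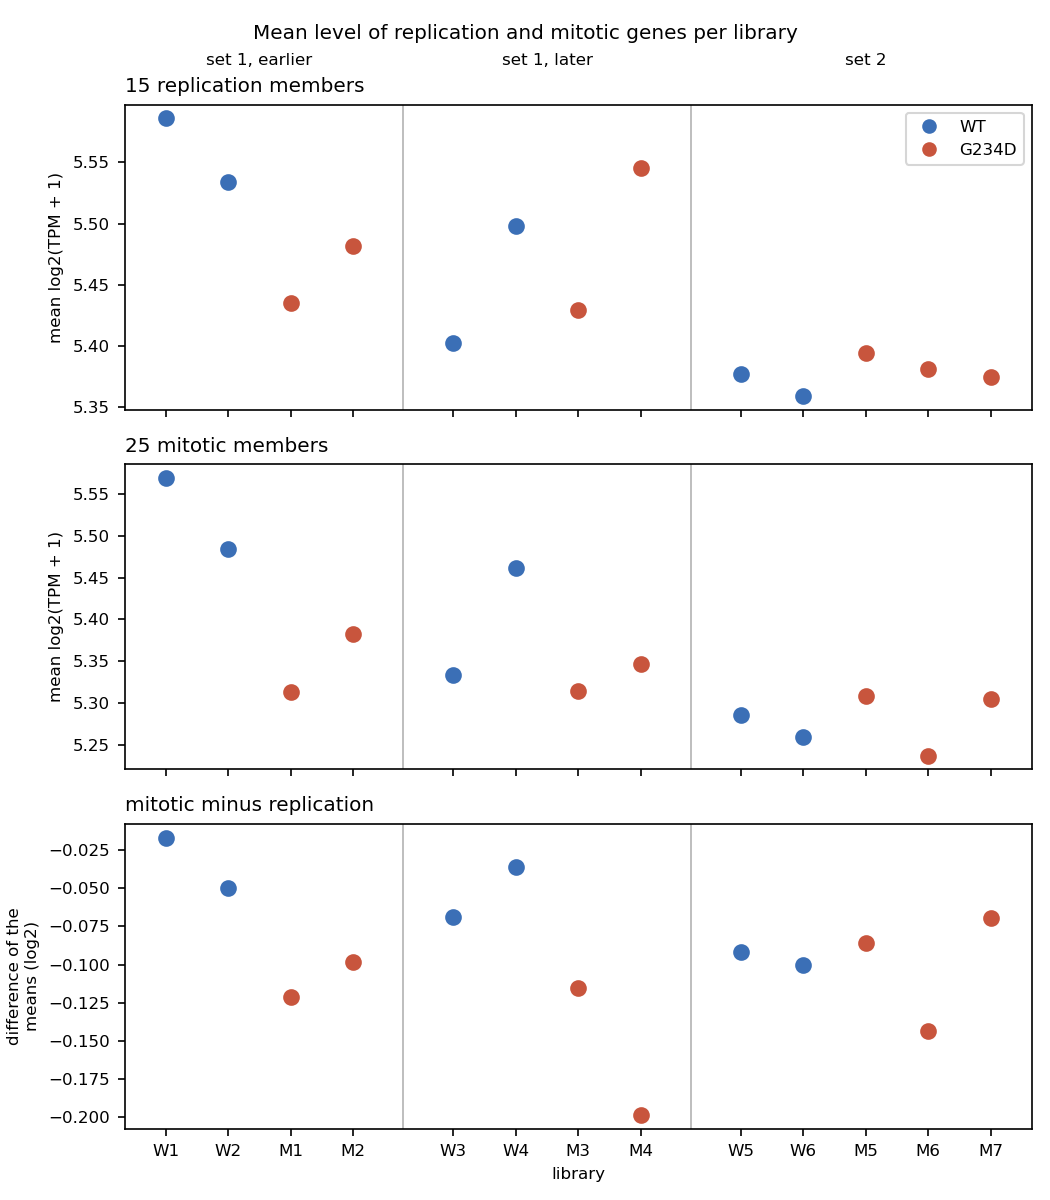
Mean log2(TPM + 1) of the 15 replication members (top) and the 25 mitotic members (middle) and their difference (bottom) in each library, 1 point per library, with axes that do not start at 0. In the bottom panel the 4 G234D cultures of set 1 lie at -0.20 to -0.099, below the 4 WT cultures at -0.069 to -0.017, and the genotypes of set 2 overlap.

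The animal groups of set 1 were compared next, later minus earlier, with genotype as a term. Of all genes 7.14% were called, 4.35% lower and 2.79% higher (limma, Benjamini-Hochberg over 11905 genes). Of the 15 replication members 1 was called lower, and of the 25 mitotic members 0. The called gene was Ccne1 (mm10 chr7:38097984-38107534, minus strand), the cyclin E that starts S phase with CDK2. It read 37.7, 35.1, 40.2 and 39.7 TPM in W1, W2, M1 and M2 and 27.9, 32.3, 32.5 and 28.8 TPM in W3, W4, M3 and M4. All later cultures lay below all earlier ones, and Ccne1 fell by 0.32 on the log2 scale (SE 0.063, limma adjusted p = 0.0272), or 0.800-fold. In set 2 it read 32.6 and 33.5 TPM in W5 and W6 and 33.9, 31.5 and 34.8 TPM in M5 to M7, which overlapped the later group through M6. The call ended without W1, M1, M2, M4 or W3 in turn (limma adjusted p = 0.0639, 0.0794, 0.104, 0.0568 and 0.0531), without M1 and M2 together (0.369) and with no expression filter (0.0521).

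The groups were also separate for Ccne2, the other cyclin E gene, at 18.2 to 19.9 TPM in the earlier and 16.1 to 16.7 TPM in the later cultures, and for Rrm2. Rrm2 read 121, 113, 116 and 109 TPM in W1, W2, M1 and M2 and 98.7, 107, 89.2 and 105 TPM in W3, W4, M3 and M4. Their log2 differences were -0.20 each, with limma adjusted p = 0.0557 for Ccne2 and 0.0655 for Rrm2, which missed the threshold. Separation downward was seen in these 3 of 15 replication members, in 0 of 25 mitotic members and in 9.68% of all genes, and separation upward in 0 of the 40 and in 5.74% of all genes. At an unadjusted p under 0.05, 8 of the 40 were lower, against 16.7% of all genes, and 0 were higher, against 9.9%. Plk1, the kinase that drives centrosome maturation and mitotic exit, came nearest in the mitotic class at -0.20 (SE 0.052, limma adjusted p = 0.0502). Plk1 was called with a filter of 10 TPM (limma adjusted p = 0.0459) and without M4 (0.0358). The medians of the classes, -0.073 for mitotic and -0.023 for replication members, stood beside -0.022 for all genes. Without M1 and M2 the difference rests on WT cultures alone, W3 and W4 against W1 and W2. The medians were then -0.14 and -0.12, beside -0.031 for all genes. Then 8 of the 40 were lower at the unadjusted level, against 6.58% of all genes, and 0 were higher, against 3.94%.

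Whether the genotype difference itself differed between the animal groups was tested with an interaction term, which is positive where G234D minus WT is higher in the later group. No member of either class was called, against 2.81% of all genes (0.932% higher and 1.87% lower, limma, Benjamini-Hochberg over 11905 genes). At an unadjusted p under 0.05, 4 of 15 replication and 2 of 25 mitotic members were higher, against 10% of all genes, and 0 of the 40 were lower, against 10.1%. The 4 were MCM genes, Mcm2, Mcm3, Mcm5 and Mcm7, and the 2 were Nusap1 and Kif11, the kinesin that pushes spindle poles apart. All 6 MCM interactions were positive, as were those of 20 of the 25 mitotic members and 6377 of all 11905 genes. The median MCM difference between genotypes was -0.20 in the earlier and 0.054 in the later group, while set 2 gave 0.026. For the mitotic class the medians were -0.20, -0.070 and 0.0035, and for all genes -0.011, 0.0093 and 0.030. The later values of the members are the same values as those of set 1 without M1 and M2.

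Mcm5 (mm10 chr8:75109569-75128439, plus strand), whose promoter is printed above with its overlapping E2F words, had the smallest interaction p of the members. It read 50.5 and 45.5 TPM in W1 and W2 against 37.4 and 40.6 TPM in M1 and M2, but 38.9 and 44.2 TPM in W3 and W4 against 42.9 and 49.5 TPM in M3 and M4. In the earlier group both G234D cultures were below both WT cultures, while in the later group the genotypes overlapped. The interaction was 0.44 (SE 0.131, limma adjusted p = 0.104), with genotype differences of -0.29 and 0.15. Mcm2 read 69.8 and 63.5 TPM in W1 and W2, 57.7 and 59.5 TPM in M1 and M2, 59.0 and 63.7 TPM in W3 and W4, and 64.4 and 70.3 TPM in M3 and M4. G234D cultures were thus the lower pair in the earlier and the higher pair in the later group, with an interaction of 0.31 (SE 0.10, limma adjusted p = 0.122). Without M3, Mcm5 (limma adjusted p = 0.0429) and Mcm7 (0.0432) were called, and across all alternatives the adjusted p of Mcm5 ran from 0.0429 to 0.319.

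In the mitotic class Nusap1, which bundles spindle microtubules, read 16.9 and 15.8 TPM in W1 and W2, 14.4 and 13.6 TPM in M1 and M2, 15 and 17.2 TPM in W3 and W4, and 17.6 and 17.2 TPM in M3 and M4. The order of the genotypes turned between the groups, with an interaction of 0.32 (SE 0.121, limma adjusted p = 0.178). Kif11 read 34.9 and 31.9 TPM in W1 and W2, 28.1 and 29.4 TPM in M1 and M2, 27.5 and 31.1 TPM in W3 and W4, and 30.5 and 29.6 TPM in M3 and M4, an interaction of 0.25 (SE 0.110, limma adjusted p = 0.243). Cdc20 gave like values in both groups, -0.22 in the earlier and -0.23 in the later animals, with an interaction of -0.01 (SE 0.095, limma adjusted p = 0.966). Ccnb1 was likewise at -0.12 and -0.17.

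In the earlier group both G234D cultures lay below both WT cultures for 21 of 25 mitotic and 9 of 15 replication members, against 30.2% of all genes. Ccne1 lay above in M1 and M2, as did 27.5% of all genes. In the later group 9 of 25 mitotic and 0 of 15 replication members lay below, against 18.4% of all genes. Those 9 were Ccnb1, Aurka, Aurkb, Cenpe, Cenpf, Kif20a, Kif2c, Tpx2 and Cdc20. Mcm2, Pcna, Ttk and Nusap1 lay above in M3 and M4, against 21.3% of all genes. M1 and M2 are also the libraries with the high Schwann cell, melanocyte and muscle markers given above, and the part of those cells in the earlier group's difference was not tested.

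**Figure D4:**
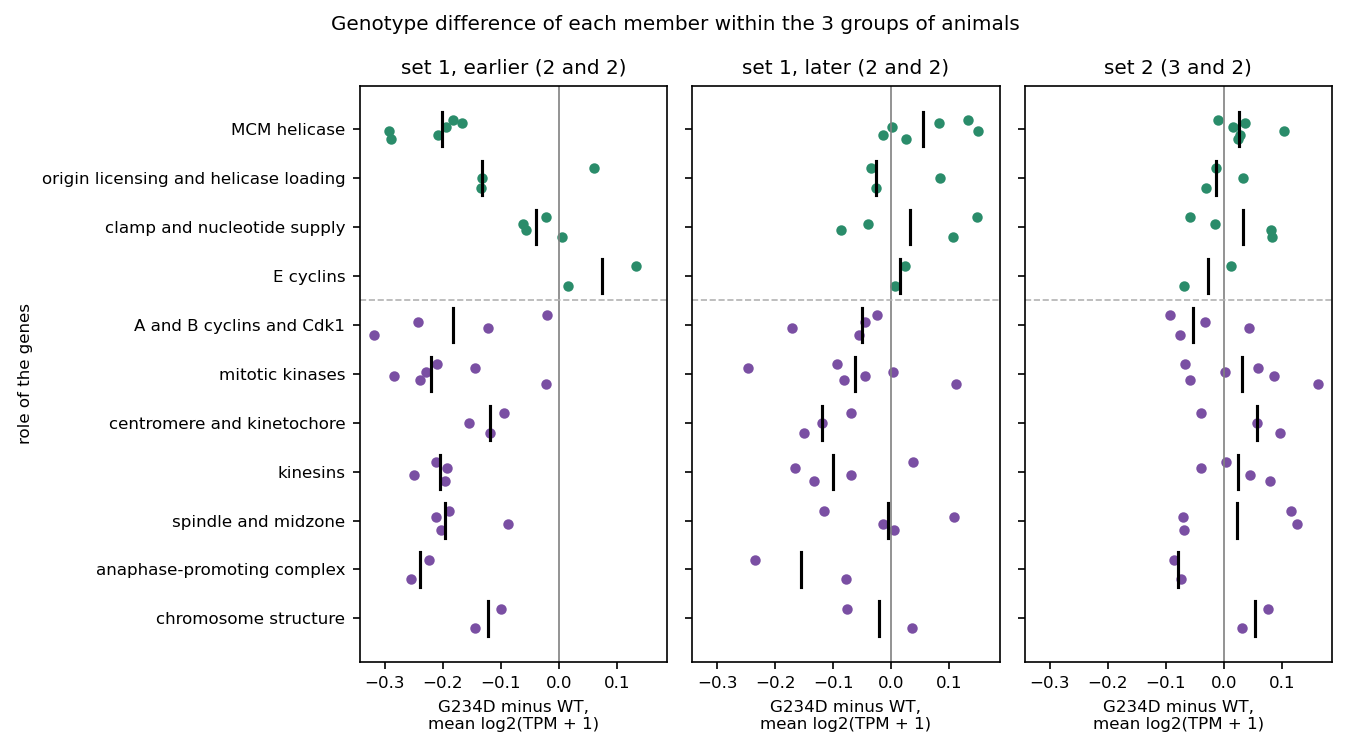
G234D minus WT in mean log2(TPM + 1) for each member (points) by role (rows) within the earlier and later animals of set 1 and within set 2, with black bars at the median of each role, replication roles above and mitotic roles below the dashed line. The MCM median moves from -0.20 in the earlier to 0.054 in the later animals, while the APC/C genes stay on the negative side in all 3 panels.

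In set 2 the members were balanced around 0. No member of either class was called (limma, Benjamini-Hochberg over 12060 genes), where 0.00829% of all genes were called, 1 gene. Positive differences were seen for 23 and negative for 17 of the 40 members, with medians of 0.017 for replication and 0.0035 for mitotic members, against 0.030 for all genes. At an unadjusted p under 0.05, 1 of 25 mitotic and 0 of 15 replication members were higher, against 4.23% of all genes, and 0 of the 40 were lower, against 2.25%. That gene was Prc1, the bundler of the spindle midzone, which read 58.7 and 57.9 TPM in W5 and W6 and 63.6, 63.1 and 64.4 TPM in M5 to M7. Its genotypes did not overlap, and its log2 difference was 0.13 (SE 0.055, limma adjusted p = 0.767).

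Tpx2 came next in the mitotic class, at 72.0 and 63.6 TPM in W5 and W6 and 75.1, 70.4 and 74.9 TPM in M5 to M7 (log2 difference 0.12, SE 0.068, limma adjusted p = 0.793). Mcm5 read 39.8 and 37.1 TPM in W5 and W6 and 44.0, 40.9 and 39.3 TPM in M5 to M7, a log2 difference of 0.10 (SE 0.071, limma adjusted p = 0.815). Rrm2 read 91.3 and 90.9 TPM in W5 and W6 and 94.6, 105 and 90.5 TPM in M5 to M7, a log2 difference of 0.08 (SE 0.068, limma adjusted p = 0.848). The genotypes overlapped in these 3 genes. All 3 G234D cultures lay above both WT cultures for Tyms, Kif23 and Prc1, and below them for Kif20a, against 16.6% and 6.95% of all genes. The widest 95% interval, that of Ttk, reached a 1.32-fold change.

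Whether the genotype difference differed between the sets was tested with a second interaction, positive where G234D minus WT is higher in set 2. No member of either class was called, as for all genes (0%; limma, Benjamini-Hochberg over 11942 genes). At an unadjusted p under 0.05, 4 of 25 mitotic members, Tpx2, Kif2c, Kif23 and Aurkb, and 0 of 15 replication members were higher, against 3.77% of all genes, and 0 of the 40 were lower, against 2.02%. Tpx2 read 84.3, 82.3, 76.7 and 78.9 TPM in W1 to W4 and 68.8, 77.3, 71.1 and 72.3 TPM in M1 to M4, and turned from -0.15 in set 1 to 0.12 in set 2, an interaction of 0.27 (SE 0.085, limma adjusted p = 0.841). Kif2c read 24.0 and 26.3 TPM in W5 and W6 and 29.1, 24.9 and 26.0 TPM in M5 to M7, an interaction of 0.24 (SE 0.089, limma adjusted p = 0.850). Of the 40 members 34 had a positive interaction, with medians of 0.12 for mitotic and 0.050 for replication members beside 0.033 for all genes. These intervals were wider than those of the genotype difference, reaching 1.43-fold.

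Between the sets, levels are set side by side with no test, since set, animals and handling cannot be told apart. Mki67 showed the widest gap of the members, at 44.7 to 54.3 TPM in set 1 and 38.2, 33.8, 36.4, 36.3 and 41.4 TPM in W5, W6 and M5 to M7. Every set 2 culture was below every set 1 culture, by 0.53 in WT and 0.36 in G234D on the log2 scale. The share of all genes with such a separation of the sets was not counted, here or for the genes below. The median set 2 minus set 1 difference of the mitotic members was -0.21 in WT and -0.037 in G234D, and that of the replication members was -0.15 and -0.098, against -0.026 and -0.0028 for all genes. Ccnb1 read 62.1 and 60.8 TPM in W5 and W6 and 67.9, 61.2 and 61.2 TPM in M5 to M7, below every set 1 culture except M3, which M5 exceeded. Mcm2 read 55.2 and 51.7 TPM in W5 and W6 and 54.7, 52.6 and 52 TPM in M5 to M7, below every set 1 culture. Other members lay nearer to their set 1 levels, with Top2a at 94.3 to 103 TPM, Cdk1 at 34.0 to 41.9 TPM and Pcna at 168 to 188 TPM in set 2. Gins2 ran the other way, at 24.7 to 26.3 TPM in set 2 against 21.2 to 24.9 TPM in set 1, where W2 overlapped.

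**Figure D5:**
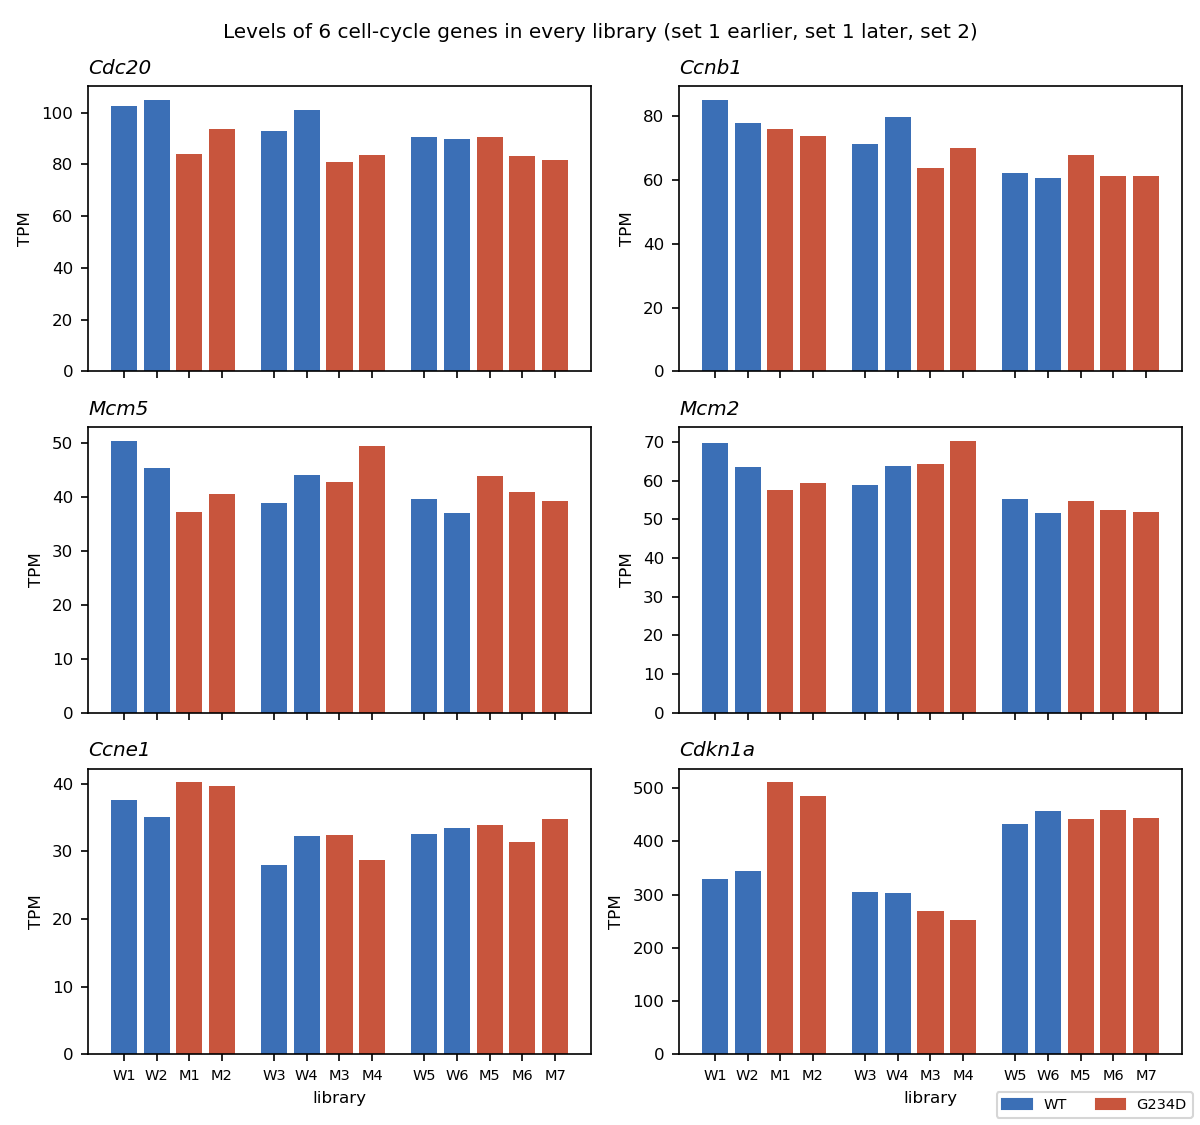
Levels in TPM of 6 cell-cycle genes in each library, 1 bar per library, WT in blue and G234D in red, grouped as set 1 earlier, set 1 later and set 2. Cdc20 is lower in M1 to M4 than in W1, W2 and W4 but overlaps W3 (93.0 TPM) through M2 (93.8 TPM), the G234D bars of Mcm5 and Mcm2 are the lower pair in the earlier animals and reach the highest level in the later ones (M4), and Cdkn1a is high in M1 and M2 (511 and 485 TPM).

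The genes that control both classes were read from lists of the wider pathway. Among 18 E2F, RB, DREAM and MuvB genes 0 were called in any of the 6 comparisons. E2f1, the activator of replication genes, read 34.7, 32.1, 29.5 and 29.6 TPM in W1 to W4, 34.9, 33.9, 32.7 and 30.8 TPM in M1 to M4, 36.6 and 36.6 TPM in W5 and W6, and 38.1, 36.4 and 37.7 TPM in M5 to M7. Every set 2 culture was thus above every set 1 culture, the opposite order to Mki67. Foxm1, the activator of mitotic genes, read 35, 34.1, 30.4 and 31.1 TPM in W1 to W4, 32.0, 32.8, 30.3 and 29.1 TPM in M1 to M4, 26.6 and 23.6 TPM in W5 and W6, and 29.6, 25.7 and 30.4 TPM in M5 to M7. Its genotype difference was -0.07 (limma adjusted p = 0.627) in set 1 and 0.18 (0.778) in set 2. Mybl2 read 18.1, 17.6, 13.4 and 15.5 TPM in W1 to W4, 15.2, 14.7, 14.5 and 15.4 TPM in M1 to M4, and 13.2 to 15.3 TPM in set 2. W1 and W2 were its highest cultures, and its genotype difference in set 1 was -0.09 (limma adjusted p = 0.730).

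Of the 7 CDK inhibitor genes 1 was called, in the interaction of animal group and genotype, where 1.87% of all genes were called lower. Cdkn1a read 330 and 345 TPM in W1 and W2 against 511 and 485 TPM in M1 and M2, then 305 and 302 TPM in W3 and W4 against 268 and 252 TPM in M3 and M4. G234D cultures were the higher pair in the earlier group and the lower pair in the later group. The genotype difference was 0.56 in the earlier and -0.22 in the later animals, an interaction of -0.78 (SE 0.075, limma adjusted p = 0.00203). It kept its call under all 15 alternatives, with an adjusted p of 0.000926 to 0.0169. M1 and M2, the high libraries, are those with the high markers of other cells, and the part of those cells was not tested; without both of them no interaction can be fitted. In set 2 Cdkn1a read 433 and 457 TPM in W5 and W6 and 442, 460 and 444 TPM in M5 to M7, with no separation of the genotypes and a log2 difference of 0.01 (SE 0.049, limma adjusted p = 0.975). All set 2 cultures lay above the 6 set 1 cultures other than M1 and M2.

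Of the 11 genes of G1 cyclins, their kinases, CDC25 phosphatases and WEE1 kinases, 1 was called in that interaction, Ccnd1, cyclin D1. It read 69.6 and 68.1 TPM in W1 and W2 against 150 and 127 TPM in M1 and M2, and 97.5 and 104 TPM in W3 and W4 against 74.9 and 104 TPM in M3 and M4. The interaction was -1.18 (SE 0.209, limma adjusted p = 0.0390), and the call ended without W1, M1, W2, W3 or W4 and with no filter. Between the animal groups, Ccnd2 (-0.36, limma adjusted p = 0.0282) and Ccnd3 (-0.21, 0.0465), the other D cyclins, and the cytokinesis gene Anln (-0.22, 0.0440) were called lower in the later animals. Each lost its call without M1 or without M2. Called lower in the later animals were thus 2 of the 11 genes and 1 of the 52 other mitotic genes, against 4.35% of all genes. Of the 44 other replication genes 0 were called in any comparison, and of the 52 other mitotic genes Anln was the only one called.

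Negative differences in set 1 were also common outside the members. Of the 52 other mitotic genes 49 were negative between genotypes, with a median of -0.078, beside 5976 negative of all 11905 genes. At an unadjusted p under 0.05, 7 of the 52 were lower, against 4.74% of all genes. Without M1 and M2, 36 were negative, with a median of -0.039, and 0 were lower at that level, against 5.27% of all genes. In the fit of all 8 libraries Kif18b, a kinesin, at -0.20 (limma adjusted p = 0.307), the condensin gene Ncapd2 at -0.20 (0.319) and the cohesin protector gene Sgo2a at -0.18 (0.360) led them. Of the 44 other replication genes 26 were negative, with a median of -0.016, and 0 were lower at that level. In the interaction of animal group and genotype 37 of the 44 other replication and 39 of the 52 other mitotic genes were positive, beside 6377 of all 11905 genes. Of the 52 other mitotic genes, 7 were higher at the unadjusted level, against 10% of all genes, and 1 was lower, against 10.1%. At an unadjusted p under 0.05, 12 of the 44 other replication genes were higher, against 10% of all genes. The DNA polymerase delta gene Pold1 led them at 0.40 (limma adjusted p = 0.0677). In set 2 the other mitotic genes had 29 positive and 23 negative members and the other replication genes 22 of each.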

How the data were processed

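RNA-seq had been run on 13 fibroblast cultures. The values are TPM per gene, made by the authors and deposited as 1 column per culture. The genome build was mm10, per the submitters' processing notes. The aligner, the counter and its annotation release were not given in the sources used here. TPM keeps no read depth, so depth is unknown and no counting intervals are given. Libraries had 11741 to 12042 genes at 1 TPM or more.

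From the deposited TPM, log2(TPM + 1) was computed, and genes at 1 TPM or more in at least 6 (both sets), 4 (set 1) or 2 (set 2) libraries were tested. A pseudocount of 1 understates fold changes of low genes. Differences were fitted with limma 3.58.1 (R 4.3.3, trended and robust empirical Bayes), adjusted by Benjamini-Hochberg over all genes tested and called at 0.05. Intervals cover 95%. Set 1 fits carry the animal group as a term, and the fit over both sets carries the set. The script was tested on simulated data. Tables and plots were made with Python 3.11.15, pandas 2.3.3 and matplotlib 3.10.9.

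Pairing by replicate number was checked in set 1 on deviations from the mean of each genotype. Across genes, same-numbered cultures correlated at r = 0.314, 0.236, 0.244 and 0.214 for numbers 1 to 4. Different numbers within an animal group gave 0.397 (W1 with M2), 0.440 (W3 with M4), 0.189 (W2 with M1) and 0.0885 (W4 with M3). Same-numbered cultures also share the animal group, so these values do not show pairing by number. Gene positions come from GENCODE M21. Members, lists and tests were chosen with earlier results of these data known. Values in every library are given for a standing list (Mki67, Top2a, Cdk1, Ccnb1, Cdc20, Aurka, Mcm2, Mcm5, Pcna, Ccne1 and Cdkn1a), for called members, and where none was called for the 2 members of each class with the smallest p. Aurkb and Ccnd1 were added after their values were seen. Alternatives were no filter, a filter of 10 TPM, pseudocounts of 0.1 and 5, quantile normalization, median-of-ratios scaling, no robust step, no animal group term, the replicate block and each library left out. Leaving out M1 and M2 together was added after seeing the data, and in set 1 it leaves the earlier group with WT cultures only.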

Additional observations from a re-analysis of the deposited data

Results flagged for a closer look

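Aurkb in W4, at 40.2 TPM, lay above the other WT cultures of set 1, which read 37.6 to 37.7 TPM. The gap was 0.966 of the group's range against a critical value of 0.829 for 4 samples. It is small in TPM and was flagged because the other cultures lay close together. Aurkb in these cultures was the 1 group to stand out of 96 checked, and chance singles out about 1 in 20 groups. Cdkn1a had a genotype difference that differed between the earlier and later animals of set 1, with an interaction of -0.784 (limma adjusted p = 0.00203). Ccnd1 also differed between these groups, with an interaction of -1.18 (limma adjusted p = 0.0390).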

How the results depend on the processing

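Of the single-gene results 4672 kept their side of the threshold under the alternatives, 40 lost a call and 6 gained one. No called direction turned, but the 4672 include uncalled results whose sign turned. Counts over groups and medians stayed close to the main value in 780 and moved in 66. In set 1 the 1 gene called lower between genotypes became 0 with no filter and 0 with no animal group term. Without M1 and M2 together, which leaves the later group alone, 3 genes were higher and 5 lower. The medians were then 0.025 for replication and -0.070 for mitotic members. Leaving out each library gave 0 to 5 genes called higher and 0 to 3 lower. For later minus earlier animals, 332 higher and 518 lower genes became 115 and 154 with no filter, with 0 replication members. They became 9 and 4 without M1 and M2, where only WT cultures span the groups, with 0 replication members. The medians were then -0.12 for replication and -0.14 for mitotic members. A filter of 10 TPM called 1 mitotic member lower, Plk1. Leaving out each library gave 16 to 358 higher and 20 to 525 lower genes, with 0 to 1 replication and 0 to 1 mitotic members lower. In set 2 the 1 gene called higher became 0 with no filter, with a filter of 10 TPM and with a pseudocount of 5, and leaving out each library gave 0 to 8 higher and 0 to 6 lower genes. The replicate block called 6 higher and 15 lower genes in set 2. The 2 WT cultures there mirror each other around their mean, so r for same numbers (-0.155 and 0.0138) cannot show pairing or its absence. The block changed no call of a member in any comparison. In the interaction of animal group and genotype, 34 higher and 105 lower genes were called with no filter, and 13 to 196 higher and 33 to 478 lower genes, with 0 to 2 replication members higher, when each library was left out. In the interaction of set and genotype leaving out each library gave 0 to 1 lower genes. The cause of these changes was not tested, and no filter adjusts over more genes by construction. The number of cultures and the unknown depth limit the precision, most in set 2.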

Other observations

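Among CDK inhibitor genes not described above, Cdkn2a, which encodes p16 and ARF, had a log2 difference of 0.39 (SE 0.078, limma adjusted p = 0.192) between genotypes in set 1 and an interaction of set and genotype of -0.72 (limma adjusted p = 0.803). Cdkn1c, which encodes p57, was at 0.33 (limma adjusted p = 0.377) in set 1, and Cdkn2b, which encodes p15, was at -0.32 (limma adjusted p = 0.617) in set 2. Between the animal groups of set 1, Cdk6, a partner of the D cyclins, was at -0.50 (limma adjusted p = 0.0556) and Cdkn2c, which encodes p18, at 0.31 (limma adjusted p = 0.0574). None of these was called.

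The 6 MCM genes differed between the animal groups in opposite directions by genotype. Later minus earlier, the median was -0.13 in WT cultures, with 6 of 6 negative, and 0.17 in G234D cultures, with 6 of 6 positive, as a description of the same values as the interaction. The E cyclins were negative in both genotypes, at -0.23 and -0.29.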
